A study of Mus musculus with 6 samples.

Results

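The 10 genes described here are those that code for p53 (Trp53), its ubiquitin ligase MDM2 (Mdm2), 5 cyclin-dependent kinase (CDK) inhibitors (Cdkn1a, Cdkn1b, Cdkn2a, Cdkn2b and Cdkn2c) and the RB family (Rb1, Rbl1 and Rbl2). They were chosen by name for their place in the pathways that SV40 disables, and all 10 were found among the 55565 genes measured by bulk RNA sequencing of mouse embryonic fibroblasts (MEFs). The study compared 3 wildtype (WT) with 3 Mcm8 knockout (KO) libraries to ask whether loss of MCM8, a helicase of DNA repair, alters transcription, because it followed R-loops, the DNA-RNA hybrids that form where genes are transcribed.

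MEFs of both genotypes were grown from embryo trunks taken at E13.5 after Mcm8 heterozygotes had been mated. The Mcm8 deletion was made by CRISPR-Cas9 in C57BL/6 mice, which were crossed to ICR mice, so the background was mixed. WT cells were Mcm8+/+ and KO cells Mcm8-/-. Cells of both genotypes were immortalized with a lentivirus carrying the SV40 gene SV40gp6 and selected with puromycin, so every comparison below was made between SV40-immortalized cells, and no cells without SV40 were measured. The study speaks of biological repeats without stating whether they were separate embryos or separate cultures. The spread between these libraries may therefore be technical. In the main test below, p-values took each gene's spread from a trend over all genes.

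In untransformed fibroblasts, p53 is a transcription factor that is stabilized by DNA damage and oncogenes and switches on Cdkn1a (p21), Mdm2 and genes of cell death and repair. The RB family proteins (pRB, p107 and p130) hold E2F transcription factors in check until cyclin D and CDK4 or CDK6 phosphorylate them. The INK4 inhibitors (p16, p15, p18 and p19 INK4d) block CDK4 and CDK6, and the CIP/KIP inhibitors (p21, p27 and p57) bind cyclin-CDK complexes more broadly. The locus Cdkn2a also encodes p19ARF, which restrains MDM2. SV40 large T antigen binds p53 and the RB family proteins.

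The 6 libraries held between 12722979 and 21022755 counts. Mcm8 itself was at 14.4 ± 1.99 CPM (each gene's counts per 1000000 counts of its library, the library size scaled by its TMM factor, mean ± SD, n = 3) in WT and at 4.26 ± 0.170 CPM in KO, a log2 fold change of -1.75. Fibroblast markers had the highest sum of the marker lists in every library, with 8 of them summing to between 24639 and 29117 CPM in WT and between 28594 and 29433 CPM in KO, although each of the 8 alone did not overlap between genotypes, against 21.6% of all genes tested and 36.0% of the 7616 with a mean CPM at least that of the lowest of the 10 genes. Of these, Col1a1, Col3a1 and Fn1 were called higher in KO, and Thy1, Pdgfrb and Vim lower, where 9.00% of all genes and 16.7% of the 7616 were called. Mesothelial markers summed to at most 3.35 CPM in WT and to between 43.2 and 48.7 CPM in KO, nearly all of it Msln. The 4 epithelial, endothelial, immune and muscle lists stayed at or below 13.2 CPM in every library, and 3 of 4 muscle markers had 3 counts or fewer in every library. Neural markers, mostly Tubb3, summed to between 21.7 and 24.0 CPM in WT and to between 32.6 and 33.9 CPM in KO. Xist lay between 940 and 1359 CPM in WT and between 474 and 494 CPM in KO, while 4 Y-linked genes summed to between 24.3 and 25.9 CPM in WT and to between 108 and 126 CPM in KO. The sex of the cells and the genotype cannot be told apart in these libraries, and the part of sex or of cell mixture in the results below was not tested.

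The promoters of the 10 genes were examined for the elements that the pathways act through. E2F factors recognize the octamers TTTCCCGC, TTTCGCGC, TTTGCCGC and TTTGGCGC, and the promoters were searched for them on both strands in windows of 300 bases (250 before and 50 after each RefSeq start site, GRCm38.p6). Windows were found for 9 of the 10 genes (all but Rb1), 12 in all. An octamer occurred in 2 of them, that of Rbl1, which codes for p107, and the distal of the 2 start sites of Cdkn2a, the one upstream of the first exon of p19ARF. Both are shown in the direction of the gene with the octamer in capitals, as the windows with an exact match. Other forms of the E2F element, and bases outside the windows, were not searched.
Rbl1, chr2:157204534-157204563, minus strand: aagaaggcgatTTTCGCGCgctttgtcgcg
Cdkn2a, distal start, chr4:89294700-89294729, minus strand: ctctgggaagcTTTCCCGCgcgactgggga

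The octamer began 18 bases before the start site of Rbl1 and 99 bases before that of Cdkn2a. It occurred in 12 of 29 windows of a list of E2F target genes and in 744 of the 32851 windows of all promoters in the table (2.26%). No window of a list of p53 targets held one. The p53 consensus, a pair of 10-base elements with at most 13 bases between them, searched on both strands, occurred in 24 windows of all promoters (0.0731%) and in 1 of the 12 windows, at the upstream start site of Cdkn1a, the gene of p21. None of 28 windows of the p53 targets held it. The upstream element, GGACTAGCTT, began 73 bases before that start site and the downstream one, GAACATGTCT, followed after 12 bases, at chr17:29090906-29090937 on the plus strand. Such matches are descriptions of the letters and not measurements of binding. The 12 windows held between 2 and 45 CpG dinucleotides, with a median of 20.5, against a median of 19.0 for the E2F targets, 22.5 for the p53 targets and 7 for all promoters.

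Of the 10 genes, 2 passed the test in KO MEFs, both with small changes. Cdkn2a and Cdkn2b, neighbours on chromosome 4, were higher in KO, at 120% and 119% of WT, and the other 8 genes, Trp53, Mdm2 and the RB family among them, did not pass the test (edgeR's quasi-likelihood test, Benjamini-Hochberg adjusted p below 0.05 over 26898 genes). Of all genes tested, 9.00% passed, 4.97% higher and 4.03% lower. Among the 7616 genes with a mean CPM at least as high as that of Rb1, the lowest of the 10, 16.7% passed, so 2 of 10 is near the background for genes of these levels. The median log2 fold change was -0.02 over the 10 genes, 0.01 over all genes tested and -0.02 over those 7616. All 10 intervals (95%, edgeR) lay within a log2 fold change of 0.5 in either direction, as they did for 6969 of the 7616 genes. None of the 10 had an absolute log2 fold change above 1, the study's threshold, which 2.42% of all genes and 0.880% of the 7616 passed together with the adjusted p.

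**Figure D1:**
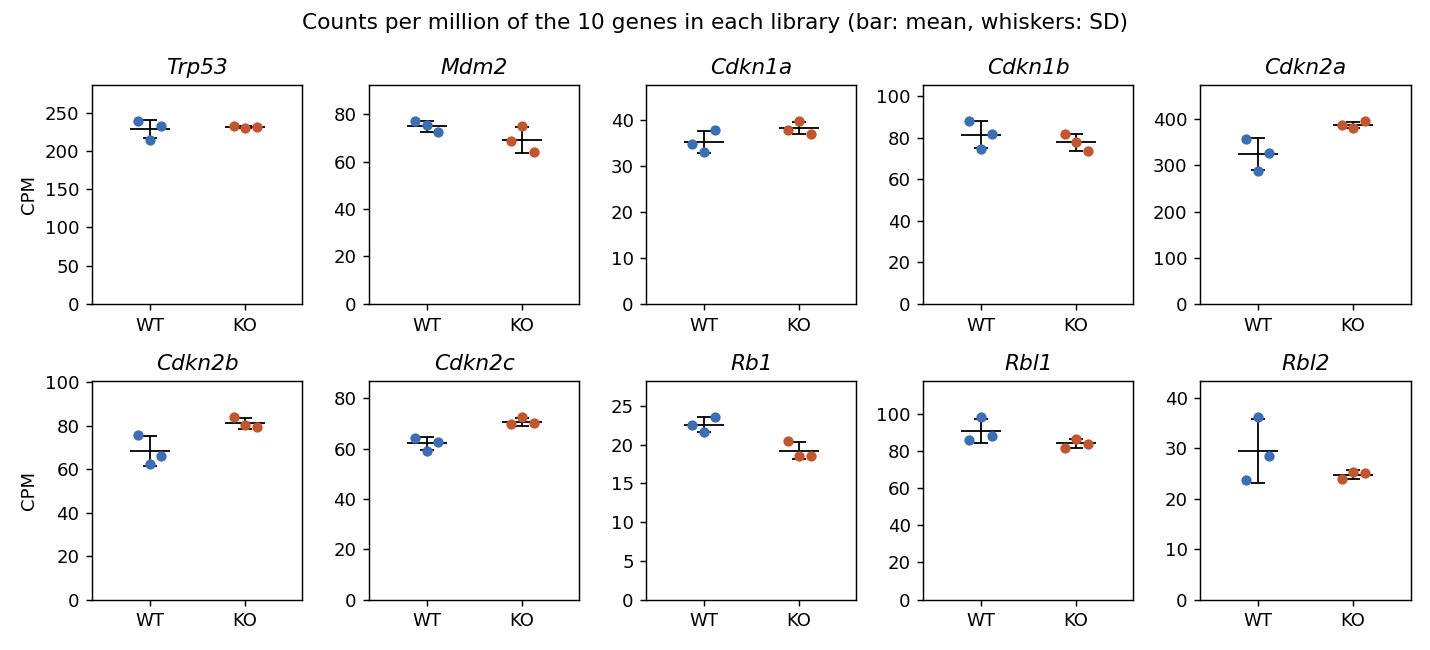
CPM (linear axes from 0) of the 10 genes in each of the 3 WT and 3 KO libraries, with points for libraries (1, 2 and 3 from left to right), a bar for the mean and whiskers for the SD. The KO points of Cdkn2a, Cdkn2b and Cdkn2c lie above all WT points, those of Rb1 lie below them, and the groups overlap in the other 6 genes.

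Trp53 (chromosome 11, 69471185 to 69482699, plus strand) was at 238, 215 and 232 CPM in the 3 WT libraries and at 233, 230 and 232 CPM in KO. The KO libraries all lay inside the WT range, and KO stood at 101% of WT. The log2 fold change was 0.02 with an interval from -0.12 to 0.16. Mdm2, whose product ubiquitinates p53 and which p53 itself induces, was at 76.9, 75.2 and 72.3 CPM in WT and at 68.5, 75.0 and 64.1 CPM in KO (chromosome 10, 117524780 to 117546663, minus strand). KO1 and KO3 were below every WT library while KO2 was not, and the log2 fold change of -0.11 (SE 0.08) did not pass (edgeR, adjusted p = 0.514), moving between -0.05 without KO3 and -0.17 without KO2. Cdkn1a, the classic p53 target that codes for p21, was at 34.9, 33.1 and 37.8 CPM in WT and at 37.95, 39.7 and 37.1 CPM in KO (chromosome 17, 29309950 to 29319701, plus strand). Here the groups overlapped by 1 library, WT3 lying above KO3, and the log2 fold change was 0.11 (SE 0.09, edgeR, adjusted p = 0.574).

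Cdkn1b, the gene of p27, was at 87.8, 74.7 and 81.6 CPM in WT and at 81.7, 78.0 and 73.5 CPM in KO (chromosome 6, 134897364 to 134902476, plus strand). The groups overlapped over most of their range, and the interval of the log2 fold change ran from -0.22 to 0.09. None of the 4 genes Trp53, Mdm2, Cdkn1a and Cdkn1b passed the test, and for each of them a change of more than 0.30 on the log2 scale lay outside the interval. Cdkn1c, the CIP/KIP inhibitor p57 and an imprinted gene, is not among the 10 but is their close relative, and it rose from 12.6, 11.6 and 12.1 CPM in WT to 21.6, 21.6 and 20.4 CPM in KO. The groups were far apart, with a log2 fold change of 0.81 (SE 0.12, edgeR, adjusted p = 7.9e-10). As a share of the summed FPKM of the 3 CIP/KIP genes (counts scaled by gene length and by 1 factor per library, a level that can be set side by side between genes), Cdkn1c went from 17.6% ± 0.481 in WT to 27.2% ± 0.170 in KO. The groups did not overlap, and an exact permutation test of 3 against 3 libraries gave p = 0.1, two-sided, the smallest value it can give. The share of Cdkn1b, from 52.9% ± 1.47 to 44.6% ± 0.970, has the same sum below it, in which Cdkn1c rose, and is not a separate result, since the CPM of Cdkn1b itself overlapped between genotypes.

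Among the 10 genes, the changes that passed were both in INK4 genes. Cdkn2a (chromosome 4, 89192708 to 89212890, minus strand) was at 358, 287 and 328 CPM in WT and at 387, 381 and 395 CPM in KO. Every KO library lay above every WT library, and WT2 was the lowest. The mean went from 324 ± 35.3 to 388 ± 6.92 CPM, 120% of WT, with a log2 fold change of 0.26 (SE 0.07, edgeR, adjusted p = 0.0024). The counts merge the transcripts of p16INK4a and p19ARF, which share exons, so which of them rose was not measured. Without WT2 the log2 fold change was 0.18 and the adjusted p 0.0987, so the call rests on that library. On log2 FPKM with limma, which also weighs in each gene's own spread, the log2 fold change was again 0.26 (SE 0.096) and the adjusted p 0.258.

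Cdkn2b, which codes for p15 (chromosome 4, 89224536 to 89229276, minus strand), was at 75.9, 62.5 and 66.2 CPM in WT and at 83.9, 80.2 and 79.3 CPM in KO. The groups did not overlap, but WT1 came close to the lowest KO library. The mean went from 68.2 ± 6.94 to 81.1 ± 2.46 CPM, 119% of WT, with a log2 fold change of 0.25 (SE 0.08, edgeR, adjusted p = 0.0198). This call was lost under 9 of 14 other settings, DESeq2 (adjusted p = 0.0533) and limma-voom (0.0535) among them, and without each of the 5 libraries other than WT1, with adjusted p between 0.0610 without KO3 and 0.214 without KO1 (0.157 without WT2, 0.0919 without WT3 and 0.0891 without KO2). The log2 fold change stayed between 0.20 and 0.33 whichever library was left out.

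Cdkn2c, the gene of p18, lies 20.3 Mb from Cdkn2b on the same chromosome (109518073 to 109524386, minus strand). It was at 64.3, 59.2 and 62.8 CPM in WT and at 69.6, 72.5 and 70.1 CPM in KO. All KO libraries were above all WT libraries, and KO stood at 114% of WT. The log2 fold change of 0.19 (SE 0.08) did not pass (edgeR, adjusted p = 0.157). It passed when WT1 was left out (0.21, adjusted p = 0.0208). Cdkn2d, the remaining INK4 gene and not one of the 10, was at 25.0 ± 2.79 CPM in WT and 25.2 ± 1.58 CPM in KO, with an interval of the log2 fold change from -0.20 to 0.20. The summed FPKM of the 4 INK4 genes went from 363 ± 36.4 to 430 ± 4.46 without overlap between genotypes (exact permutation p = 0.1, two-sided). Within that sum the share of Cdkn2a was 75.8% ± 0.706 in WT and 76.7% ± 0.525 in KO, overlapping between genotypes. The sum is therefore mostly Cdkn2a and is not a separate result.

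The log2 fold changes of the 3 RB family genes were below 0, and none passed the test. Rb1 (chromosome 14, 73421113 to 73563262, minus strand) was at 22.5, 21.7 and 23.6 CPM in WT and at 20.5, 18.6 and 18.6 CPM in KO. All KO libraries were below all WT libraries, at 85.2% of WT on average, and the log2 fold change was -0.23 (SE 0.11, edgeR, adjusted p = 0.220). Rbl1, the gene of p107 with the octamer shown above (chromosome 2, 156987813 to 157046454, minus strand), was at 85.8, 98.1 and 88.2 CPM in WT and at 81.7, 86.6 and 83.6 CPM in KO. KO2 lay above WT1, so the groups overlapped, and the log2 fold change was -0.11 (SE 0.08, edgeR, adjusted p = 0.488), or -0.05 without WT2. Rbl1 and Mcm8 are on the same chromosome, 24.3 Mb apart. Rbl2, the gene of p130, was at 23.7, 36.2 and 28.5 CPM in WT and at 23.9, 25.4 and 25.2 CPM in KO (chromosome 8, 91796685 to 91850472, plus strand). WT1 was as low as the KO libraries and WT2 far above them. The log2 fold change was -0.25 (SE 0.10, edgeR, adjusted p = 0.114), with an SE of 0.14 in DESeq2. Leaving out WT1 brought it to -0.37 and past the test (adjusted p = 0.0013), and leaving out WT2 brought it to -0.08, so the value of Rbl2 depends on which WT libraries are used. The SD over WT libraries was larger than that over KO libraries in 8 of the 10 genes, and in 77.5% of the 7616 genes.

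The CPM of 4 of the 10 genes did not overlap between genotypes (Cdkn2a, Cdkn2b, Cdkn2c and Rb1), where 21.6% of all genes tested and 36.0% of the 7616 genes did not overlap. An unadjusted p below 0.05 was reached by 5 of the 10, the INK4 genes Cdkn2a, Cdkn2b and Cdkn2c higher and Rb1 and Rbl2 lower, against 17.9% of all genes tested and 31.3% of the 7616. DESeq2 and limma-voom each called Cdkn2a higher and none of the 10 lower. DESeq2 called 11.5% of the 15424 genes to which it gave an adjusted p (6.23% higher, 5.26% lower) and 13.7% of the 7616 (6.01% higher, 7.65% lower). The limma-voom calls took 7.05% of all genes tested (3.97% higher, 3.08% lower) and 12.9% of the 7616 (5.82% higher, 7.08% lower).

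**Figure D2:**
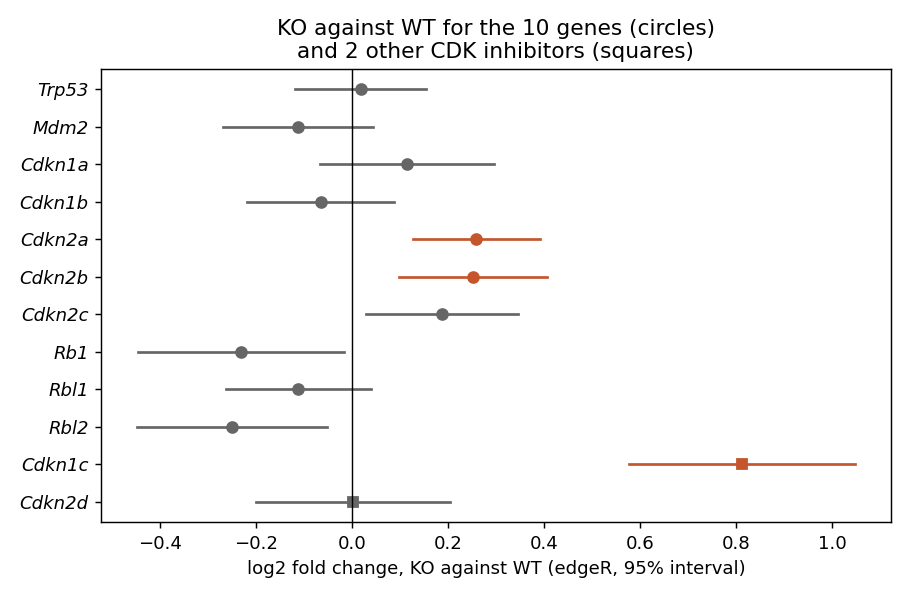
Log2 fold change of KO against WT from edgeR (horizontal axis) with its 95% interval for the 10 genes (circles) and for Cdkn1c and Cdkn2d (squares), orange where the adjusted p was below 0.05. The INK4 genes Cdkn2a, Cdkn2b and Cdkn2c lie to the right of 0 at 0.26, 0.25 and 0.19, while the INK4 gene Cdkn2d lies at 0.002. The RB family lies to the left, and Cdkn1c stands apart at 0.81.

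Genes that overlap one of the 10 can share its reads, and the sources used here do not state whether counting used strand. Rb1 overlaps Rcbtb2, on the opposite strand, at 43.4 CPM in WT and at 45.5 in KO, and it contains Lpar6, also on the opposite strand, at 10.7 CPM in WT and 8.28 CPM in KO with a log2 fold change of -0.36 (edgeR, adjusted p = 0.125). Rbl2 overlaps Aktip on the opposite strand, at 24.1 CPM in WT and 21.2 CPM in KO. The other overlapping genes (Gm17233 and Mir687 at Rb1, Gm45464 at Rbl2, Gm14277 at Rbl1 and 1700023B13Rik at Cdkn1a) had at most 14 counts in a library. How far these genes share reads with Rb1 and Rbl2 was not tested.

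The genes around Cdkn2a were then read. Cdkn2a and Cdkn2b are 11.6 kb apart, and 38 genes are listed within 500 kb of Cdkn2a, most of them at or near 0, with a cluster of interferon genes among them. Of the 26 that were tested, 6 had a mean of at least 1 CPM, and 3 were higher in KO and none lower (4.97% and 4.03% of all genes tested, and 7.67% and 9.03% of the 7616). Of the 3, Cdkn2a defines the window and Cdkn2b was described above, which leaves 1, Gm49890, a long noncoding RNA that went from 4.45 to 7.92 CPM with a log2 fold change of 0.83. Mtap, the methylthioadenosine phosphorylase gene that is often lost together with this locus in tumours, was at 174 CPM in WT and at 168 in KO, with a log2 fold change of -0.05, and it did not pass the test.

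By profile over the 6 libraries (log2 of CPM + 0.5, centred on each gene's mean, with the root mean squared difference as the measure), the genes most like Cdkn2a among 13222 were Tspo, Ecm1, Efemp2 and Ifnar2, at differences of 0.018, 0.025, 0.028 and 0.033. Those most like Cdkn2b were Ccdc85b, Tubg1, Tspo and Acads, at 0.036, 0.036, 0.037 and 0.039. Cdkn2b was the 25th most like Cdkn2a, and Cdkn2a the 13th most like Cdkn2b. All of these genes share the same 6 libraries, and the likeness includes the low value of WT2.

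Levels per length ordered the 10 genes in much the same way in both genotypes. In WT, Cdkn2a led at 275 ± 30.1 FPKM, followed by Trp53 at 56.2 ± 2.99 and Cdkn2b at 48.9 ± 5.08 FPKM. Cdkn2c at 23.0, Cdkn1b at 17.8, Rbl1 at 15.1, Mdm2 at 14.7 and Cdkn1a at 9.89 FPKM made up the middle, and Rbl2 at 3.88 and Rb1 at 3.74 FPKM were lowest. Of the 9 pairs of neighbours in that order, 3 had overlapping ranges, namely Trp53 with Cdkn2b, Rbl1 with Mdm2, and Rbl2 with Rb1. In KO, Cdkn2a was at 329 ± 5.68 FPKM, and Cdkn2b at 58.1 ± 1.69 stood above Trp53 at 56.9 ± 0.202 FPKM with overlapping ranges. The other places were kept, with Cdkn2c at 26.2, Cdkn1b at 17.0, Rbl1 at 13.9, Mdm2 at 13.6, Cdkn1a at 10.7, Rbl2 at 3.27 and Rb1 at 3.18 FPKM. Rbl1 made up 66.5% ± 0.995 of the summed FPKM of the RB family in WT and 68.4% ± 0.819 in KO, the largest share in both genotypes.

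**Figure D3:**
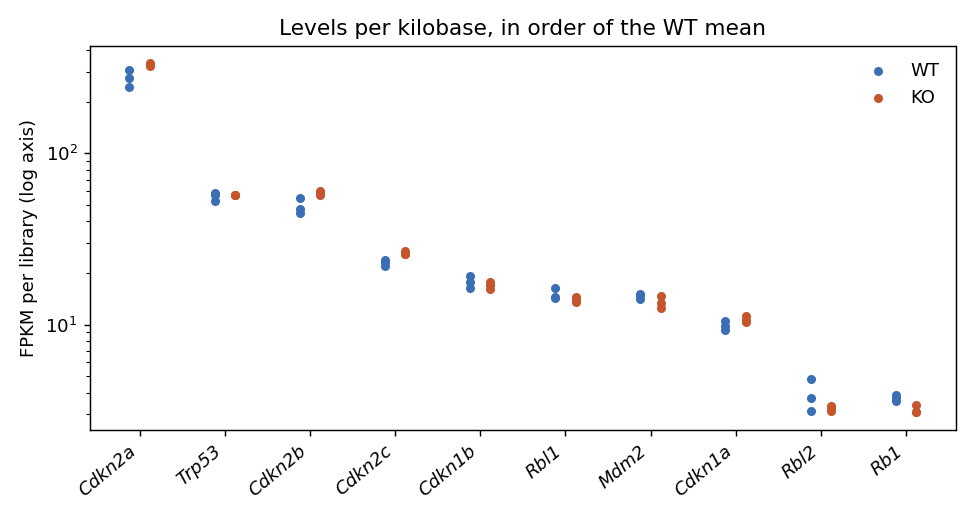
FPKM per library (vertical log axis) of the 10 genes, ordered from left to right by the WT mean, with blue points for WT and orange points for KO libraries. Cdkn2a stands above 240 FPKM in every library, Rbl2 and Rb1 stand below 5, and only Trp53 and Cdkn2b trade places between genotypes.

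The wider p53 pathway was read in lists of genes. Of 30 p53 targets, 2 were higher in KO, 3 were lower and 25 did not pass, with a median log2 fold change of -0.04. These 5 of 30 are the same share, 16.7%, as among the 7616 genes at or above the level of Rb1, and more than the 9.00% of all genes tested. The higher ones were Perp and Epha2. Perp, a membrane protein of desmosomes and of p53-dependent death, was at 1.10, 1.35 and 0.912 CPM in WT and at 6.56, 6.31 and 6.24 CPM in KO, a log2 fold change of 2.52 (SE 0.26). In the lists of the p53 and RB pathways it was the one gene past both of the study's thresholds, the fold and the adjusted p. The epithelial markers moved with it, summing to between 3.42 and 5.09 CPM in WT and to between 12.2 and 13.2 CPM in KO, with 3 of 5 tested markers (Krt8, Krt18 and Krt19) called higher. Their part in the value of Perp was not tested. Epha2, a receptor tyrosine kinase, went from 57.9 ± 2.95 to 79.4 ± 5.51 CPM (log2 fold change 0.45, SE 0.08).

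The p53 targets that fell were Polk, Tigar and Ccng1. Polk, the translesion polymerase kappa, fell from 29.0 ± 0.558 to 21.04 ± 2.06 CPM (log2 fold change -0.46, SE 0.10). Tigar, a regulator of glycolysis, fell from 20.8 ± 1.25 to 15.8 ± 1.153 CPM (log2 fold change -0.41, SE 0.11), a call lost without WT3 or without KO1. Ccng1, cyclin G1 and one of the most strongly p53-induced genes, fell from 129 ± 10.3 to 98.9 ± 8.37 CPM (log2 fold change -0.38, SE 0.07). In these 3 genes the groups did not overlap. Plk2, the target with the most counts, was at 187 ± 4.90 CPM in WT and 174 ± 6.82 CPM in KO (edgeR, adjusted p = 0.456). The targets that passed went in both directions.

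Of 19 regulators of p53, none was higher and 2 were lower (10.5% called, against 9.00% of all genes tested and 16.7% of the 7616), with a median log2 fold change of 0.03. Atr, the kinase that senses stalled replication forks, was at 45.9, 60.5 and 52.2 CPM in WT and at 41.9, 37.7 and 44.0 CPM in KO (log2 fold change -0.36, SE 0.09). The groups did not overlap, but the call was lost without WT2 or without KO2. Npm1, nucleophosmin, which binds p19ARF in the nucleolus, lay between 920 and 1140 CPM in WT and between 791 and 827 CPM in KO (log2 fold change -0.31, SE 0.06). Rpl5, a ribosomal protein that binds MDM2, went from 763 ± 105.5 to 686 ± 23.2 CPM, with groups that overlapped (log2 fold change -0.15, edgeR, adjusted p = 0.137). It was called lower without WT2 (-0.21, adjusted p = 0.017) and without WT3 (-0.20, 0.033), and was at -0.03 without WT1. Trp63 and Trp73, the relatives of p53, had at most 4 counts in any library, so p53 was the one family member measured well here.

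**Figure D4:**
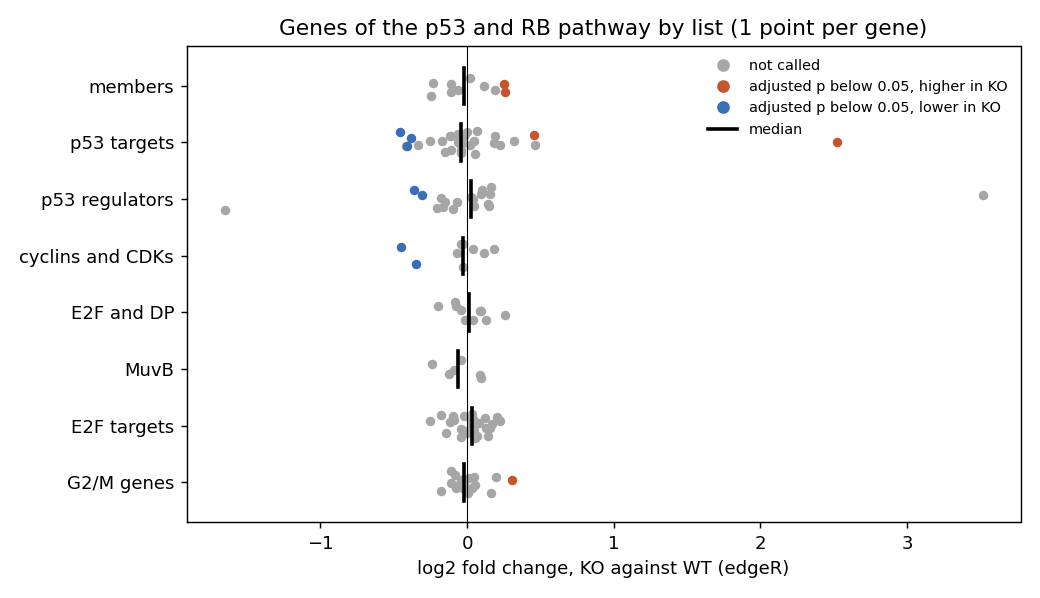
Log2 fold change of KO against WT (horizontal axis, edgeR) for each gene of 8 lists, 1 point per gene, with black bars for medians, orange for genes called higher in KO and blue for genes called lower. Medians of all 8 lists lie within 0.1 of 0; the far orange point is Perp at 2.52, and the far grey points among the p53 regulators are Trp63 and Trp73, with at most 4 counts in a library.

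Around the RB family, 5 lists were read against the same background, in which 9.00% of all genes and 16.7% of the 7616 passed, and 17.9% and 31.3% had an unadjusted p below 0.05. Of the 8 E2F factors and their 2 DP partners, none passed in edgeR, DESeq2 or limma-voom, and 1 had an unadjusted p below 0.05. Tfdp1, the gene of DP1, was at 316 ± 10.8 CPM in WT against 299 ± 2.12 CPM in KO, and E2f4, the E2F that p107 and p130 hold in quiescent cells, was at 117 ± 6.19 and 116 ± 5.20 CPM. The 6 MuvB genes, whose complex joins p107 and p130 to repress cell cycle genes, also gave no call in the 3 tools and none at an unadjusted p below 0.05. Rbbp4 among them was at 401 ± 28.8 CPM in WT against 390 ± 12.4 CPM in KO, and Mybl2, the B-MYB that takes over MuvB in cycling cells, at 81.1 ± 5.67 and 86.4 ± 1.91 CPM.

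Among 9 cyclins and CDKs, 2 fell and none rose. Both, Ccnd1 and Ccnd2, were D-type cyclins, the partners of CDK4 and CDK6 that the INK4 proteins oppose. The D-type cyclin Ccnd3, also in the list, did not pass. Ccnd1 was at 147, 168 and 165 CPM in WT and at 114, 112 and 126 CPM in KO, a log2 fold change of -0.45 (SE 0.07, edgeR, adjusted p = 3.0e-08). Ccnd2 was at 254, 314 and 322 CPM in WT and at 231, 239 and 228 CPM in KO, a log2 fold change of -0.35 (SE 0.07, edgeR, adjusted p = 1.3e-05). In both genes every KO library lay below every WT library, and both calls held under each of 12 alternatives. Cdk4, the catalytic partner, was at 461 ± 36.5 CPM in WT against 473 ± 6.95 CPM in KO and did not pass (edgeR, adjusted p = 0.795).

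Of 30 E2F target genes of replication and nucleotide synthesis, none passed in edgeR, while 6 had an unadjusted p below 0.05, 4 higher and 2 lower, and DESeq2 and limma-voom each called 1 lower. All 30 intervals lay within a log2 fold change of 0.5 in either direction, and the median was 0.03. Dnmt1, the maintenance DNA methyltransferase, was at 533 ± 47.7 CPM in WT against 548 ± 8.81 CPM in KO, and Rrm1, a subunit of ribonucleotide reductase, at 415 ± 15.1 and 367 ± 1.79 CPM (log2 fold change -0.18, edgeR, adjusted p = 0.0797). Rrm1 was the target that DESeq2 (adjusted p = 0.034) and limma-voom (0.024) called lower, and edgeR called it without WT1 (0.0016) or without WT3 (0.048). Without WT1, 4 targets were called higher and 3 lower. Pcna, the replication clamp and also a known E2F target, is not in the list. It was called higher in KO, with a log2 fold change of 0.40 (SE 0.07, edgeR, adjusted p = 5.6e-07). Pcna lies near Mcm8 on chromosome 2, starting at 132091082 where Mcm8 starts at 132658061. The Pcna pseudogene Pcna-ps2 went from 66.6 to 0.91 CPM. Whether reads were shared between the gene and the pseudogene was not tested, so the value of Pcna is uncertain. Of 20 G2/M genes, 1 rose and none fell. Plk1, the mitotic kinase, went from 113, 109 and 118 CPM in WT to 138, 137 and 146 CPM in KO, a log2 fold change of 0.30 (SE 0.07, edgeR, adjusted p = 0.00087). Top2a was at 688 ± 47.3 CPM in WT against 714 ± 16.7 CPM in KO, and Mki67, the proliferation marker Ki-67, at 594 ± 99.0 and 577 ± 7.75 CPM, with overlapping groups in both. Without WT1, Mki67 was called lower (log2 fold change -0.17, edgeR, adjusted p = 0.00012). All 20 intervals lay within 0.5, and without WT1 the list had 3 genes higher and 4 lower. In these bulk libraries a change in the share of cells of a kind and a change in RNA per cell cannot be told apart.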

How the data were processed

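Total RNA of 3 WT and 3 KO MEF libraries was prepared with a NEBNext Ultra kit for paired-end sequencing. The authors trimmed reads, aligned them with HISAT2 2.0.5 and counted reads per gene with featureCounts 1.5.0-p3, per the labels and the paper's methods; the strand setting is not given in the sources used here. The deposited counts are whole numbers, and the deposited FPKM values are these counts scaled by gene length and by 1 factor per library, which implied totals of 99.0% to 102% of the counted ones. Coordinates are those of the deposited files. The methods name a later Ensembl release, the submitters' processing notes GRCm38, and none of the 10 genes has its GRCm38 start (GENCODE), so promoter positions, from RefSeq GRCm38.p6, are on another build than the gene positions.

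Counts were fitted with edgeR 4.0.16 (quasi-likelihood, TMM, which also scaled the CPM, no covariates, genes with FPKM above 0 in at least 1 library) and adjusted over 26898 genes. The fitted prior degrees of freedom were infinite, so each gene took its spread from the trend. In simulated data edgeR recovered 90 of 100 genes changed by a log2 fold of 0.5 and 100 of 100 changed by 1, with 4 false calls among 25651 genes. These data were drawn from edgeR's own fitted trend, with changes placed in genes above a floor of expression. Recovery there does not show how well the trend fits these libraries, and changes below 0.5 were not simulated. DESeq2 1.42.0, limma 3.58.1 (voom, or log2 of FPKM plus 1 or 0.1), RLE scaling, filterByExpr, no filter, a replicate block and leaving out each library were alternatives. Exact permutation tests of 3 against 3 libraries cannot go below p = 0.1. Python 3.11.15 and R 4.3.3 were used.

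The 10 genes and the lists were chosen with earlier results of these data known. Named were the 10 genes, Cdkn1c and Cdkn2d, in each list up to 4 called genes of at least 1 CPM by largest change and up to 2 with most counts, genes overlapping one of the 10, genes within 500 kb of Cdkn2a, 4 genes of similar profile, and Mcm8. Gm49890, Mtap, Trp63, Trp73, Pcna, Pcna-ps2 and the named markers were added after their values were seen.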

Additional observations from a re-analysis of the deposited data

How the results depend on the processing

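The counts of calls among the 10 genes rest on small differences. Higher calls numbered 2 in edgeR, 1 with DESeq2, 1 with limma-voom and 0 with limma on log2 FPKM at either pseudocount, and ranged from 0 to 3 when 1 library was left out (0 without WT2), with 0 to 1 lower calls. For all genes, higher calls then ranged from 956 to 1650 and lower calls from 650 to 1624. In the same way calls ranged from 0 to 2 higher and 1 to 3 lower among p53 regulators, 0 to 1 lower among E2F and DP genes, 0 to 1 higher among cyclins and CDKs, 0 to 1 lower among MuvB genes, 0 to 4 higher and 0 to 3 lower among E2F targets, and 1 to 3 higher and 0 to 4 lower among G2/M genes. E2F targets had 1 lower call with DESeq2 and 1 with limma-voom. G2/M genes had 2 higher calls with DESeq2, 2 with limma-voom and 2 with filterByExpr, and 1 lower call with DESeq2. Overlapping neighbours in the WT level order ranged from 1 to 3. The sign changed for Cdkn2d with limma-voom (-0.0049) and, with 1 library left out, for Trp53 (-0.024 to 0.049), Cdkn2d (-0.063 to 0.10), E2f4 (-0.058 to 0.018), Cdk4 (-0.0040 to 0.10), Rbbp4 (-0.070 to 0.022), Dnmt1 (-0.028 to 0.10) and Mki67 (-0.17 to 0.042, called lower without WT1). Without WT1 the calls of all genes rose in both directions and the SE of Cdkn2a went from 0.067 to 0.043 (0.070 without WT2). The cause was not tested.

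Libraries of the same number did not deviate together (correlations of -0.02, -0.02 and 0.04 over 14332 genes), so no sign of a pairing by number was seen. With 3 libraries per genotype a pairing could still be missed. A replicate block gave 2365 calls against 2420, with 2311 in both, and the same 2 higher calls among the 10 genes. RLE scaling moved the median log2 fold change by -0.00088. Trp63 and Trp73, with at most 4 counts in a library, could not be compared at these depths.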
